A study of Polyandrocarpa zorritensis and Clavelina lepadiformis with 36 samples.

Results

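The genes described here are molecular chaperones, prolyl isomerases and enzymes of thiol, peroxide and sulfide chemistry in 2 tunicates, *Polyandrocarpa zorritensis* and *Clavelina lepadiformis*. They were taken by a pattern of human entry names, set with earlier results of these data known, from the ortholog pairs (a transcript of each species matched to the other) that the authors list. The pattern took 53 of 4424 pairs, of which 3441 carry a human name, and these 53 pairs bear 50 different entry names. The name of *P. zorritensis* was used, or that of *C. lepadiformis* where *P. zorritensis* had no human name, which was the case for 6 pairs (DNJC2, GLRX2, GPX6, PDIA1, THIOM and the first MGST1 pair). Both names met the pattern in the other 47 pairs, although the human names differed in 3 of them: FKB14 was named FKBP7, HS105 was named HS74L and the second PPIB pair was named PPIC in *C. lepadiformis*. By role, 5 members are subunits of the chaperonin TRiC, 2 belong to the HSP110 and HSP90 families, 7 are J-domain cochaperones, 1 is a small heat shock protein and 1 a mitochondrial cochaperone. A further 8 fold proteins in the endoplasmic reticulum, 9 are prolyl isomerases, 3 degrade peroxides, 11 belong to glutathione metabolism, 5 to the thioredoxin system and 1 to sulfide oxidation.

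RNA was sequenced from 5 life stages of each species, in 36 samples in all, to compare dormant bodies with growing tissue. Zooids (the feeding animals), stolons (the vascular outgrowths that connect them), pre-buds (the budding nests of *P. zorritensis* and the budding chambers of *C. lepadiformis*, from which new zooids arise) and dormant tissue had 3 replicates each. For germination there were 6 replicates in each species, germinated for 48 h at 18 °C (3 of them) or 24 °C (the other 3), and the authors averaged them together. Tissue of 3 or more specimens was pooled in each replicate. The dormant spherules of *P. zorritensis* were taken from a rope in the field in spring and frozen at once, while its other growing stages came from spherules of that rope germinated in the laboratory, so that dormancy and field collection cannot be told apart in this species. All tissue of *C. lepadiformis*, winter buds included, came from 1 laboratory colony.

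Chaperones bind unfolded proteins and release them in cycles driven by ATP. HSP70 receives its clients from J-domain proteins and passes many of them to HSP90 or to TRiC, the ring that folds actin and tubulin, while secreted proteins are folded in the endoplasmic reticulum by BiP, ENPL, protein disulfide isomerases and prolyl isomerases. Glutathione and thioredoxin, each kept reduced by its own reductase, supply the electrons for peroxidases and for the repair of oxidized thiols. Resting stages of several animals, such as encysted brine shrimp embryos, are known for large stores of chaperones.

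Levels are the authors' stage means of TPM after scaling between libraries (here called scaled TPM). TPM is a value per transcript length, so levels can also be set side by side between genes of a species. The species were scaled separately, so levels of one are not compared with those of the other. Since a stage has a single mean, the spread between replicates is not known, so no difference below has an error or a test, and whether the replicates of the stages overlap is unknown. The depth of each sample is likewise unknown from these values. Differences between stages are given as log2 of the value plus 1, which understates those of low transcripts. A member is counted as higher or lower when the stages differ by at least 2-fold on this scale and the higher mean is at least 5. Such counts are read against the share of listed pairs past the same 2-fold limit, among those of the 4424 whose higher mean is also at least 5. For counts over both species, these are the pairs that pass this filter in both. Below, this is called the share of all pairs. Shares by highest or lowest stage, and medians, are over all 4424 pairs. All listed pairs carry a call of the authors in both species, so these shares describe genes that vary between stages, not the whole transcriptome. The sum over all transcripts differed between stages. In *P. zorritensis* it was lowest in the zooid stage (687867) and highest in the dormant one (1570747). The sums of *C. lepadiformis* ran from 741785 (stolon) to 1274782 (germinating). In dormant *P. zorritensis* 1 transcript held 9.24% of the sum. Rescaling the stages to equal sums therefore moves the median difference of all pairs between dormant tissue and zooids of *P. zorritensis* from -0.51 to -1.49, and between germinating and dormant tissue from 0.20 to 0.59. For *C. lepadiformis* the latter moves from -0.01 to -0.51. Equal sums bring the values back near plain TPM and so largely undo the authors' scaling between libraries. A few abundant transcripts of a stage then lower the values of all others. The 10 highest transcripts held 24.0% of the sum in dormant *P. zorritensis* and 9.85% in its zooids. Which scaling is nearer to the tissue was not tested. Counts are given both ways, and stage orders and single differences are those of the deposited scaling unless another is named. In bulk tissue, fewer cells of a type and less RNA per cell cannot be told apart.

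Dormant tissue of *P. zorritensis* had both higher and lower members. Against zooids, 50 members passed the filter, of which 10 were at least 2-fold higher, beside 12.7% of all pairs, and 17 were lower, beside 32.7%. Against pre-buds, 40 members passed, 4 were higher (8.46% of all pairs) and 10 lower (15.7%). Against stolons, 42 passed, 10 were higher (16.3%) and 6 lower (18.6%). Germinating tissue, compared with dormant tissue, had 12 of 42 members higher, where 15% of all pairs were, and 2 lower, where 5.96% were. The median difference of the 53 members between germinating and dormant tissue was 0.58 and that of all pairs 0.20. The 10 members above zooids were DNJB4, DNJC7, FKBP4, GLRX2, GLRX5, GRPE1, HS90B, PDIA4, SQOR and TCPD, and the 10 above stolons were DNJB4, FKBP4, GLRX5, GPX6, GRPE1, HS90B, HSPB1, SQOR, TCPD and TRXR2. With equal sums the split of higher to lower members became 3 to 35 against zooids (2.67% and 68.5% of all pairs), 3 to 17 against pre-buds (2.62% and 45.2%), 4 to 18 against stolons (3.68% and 49.1%) and 24 to 1 for germinating against dormant tissue (37.2% and 1.95%).

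In *C. lepadiformis* few members differed between dormant tissue and pre-buds or stolons, and more did in the comparisons with zooids and with germinating tissue. Dormant tissue had 3 of 51 members higher than zooids (10.4% of all pairs) and 15 lower (27.3%). None of the 45 that passed the filter was higher than in pre-buds (4.61%) and 2 were lower (6.03%). Of 43 compared with stolons, none was higher (1.42%) and 4 were lower (4.52%). No member was higher in germinating than in dormant tissue (5.55% of all pairs), while 12 of 45 were lower (6.32%), and the median difference of all 53 members was -0.32 where that of all pairs was -0.01. These 12 were BIP, both ENPL pairs, PDIA4, PDIA5, PDIA6, DNJA1, DNJB4, DNJB6, DNJC3, HS105 and TRXR1. Equal sums raised the number of lower members to 24, with 30.0% of all pairs. The stage with the lowest mean was germinating tissue for 30 of the 53 members and for 31.3% of all pairs. Dormant tissue of *C. lepadiformis* held the highest mean of none of the 53 members, beside 7.64% of all pairs, and with the transcripts of a Trinity gene (the assembler's unit of related transcripts) summed it held that of 1, GSHR.

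The folding machinery of the endoplasmic reticulum differed in opposite directions between the species at germination. In *P. zorritensis* all 8 members had a higher mean in germinating than in dormant tissue, 6 of them by at least 2-fold, with a median log2 difference of 1.61. In *C. lepadiformis* 7 of the 8 had a lower mean, 6 of them by at least 2-fold, with a median of -1.27. In all, 5 members were past the limit in both species, namely BIP, both ENPL pairs, PDIA5 and PDIA6, out of 40 members that passed the filter in both. Such opposite differences were found in 1.83% of all pairs. Their direction and their place past 2-fold held with no pseudocount, a pseudocount of 5, equal sums, a median ratio of 0 and the transcripts of a Trinity gene summed, where the differences ran from 1.35 to 3.12 in *P. zorritensis* and from -2.54 to -1.08 in *C. lepadiformis*. With transcripts summed, both ENPL pairs had the same value in *C. lepadiformis*, since their transcripts there belong to the same Trinity gene.

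BIP, the HSP70 of the reticulum, had a mean in *P. zorritensis* of 188 in zooids, 181 in stolons, 242 in pre-buds, 91.2 in dormant and 261 in germinating tissue. It was lowest in the dormant stage and 1.51 higher on the log2 scale at germination. BIP of *C. lepadiformis* had means of 218 in zooids, 497 in stolons, 258 in pre-buds, 247 in dormant and 91.5 in germinating tissue, the highest in stolons and the lowest in germinating tissue, which was -1.42 from dormant tissue.

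ENPL, the HSP90 of the reticulum, was present as 2 pairs, whose *C. lepadiformis* transcripts belong to the same Trinity gene and whose *P. zorritensis* transcripts belong to different ones. The first pair of *P. zorritensis* had 159 in the zooid, 139 in the stolon, 199 in the pre-bud, 87.0 in the dormant and 308 in the germinating stage. The second had 105 in the zooid, 94.7 in the stolon, 133 in the pre-bud, 35.2 in the dormant and 156 in the germinating stage, so that both were lowest in dormant spherules. Germinating minus dormant differences were 1.81 and 2.11. The first pair of *C. lepadiformis* had 144 in zooids, 342 in stolons, 238 in pre-buds, 277 in dormant and 128 in germinating tissue. The second had 81.1 in zooids, 195 in stolons, 58.8 in pre-buds, 113 in dormant and 29.7 in germinating tissue there. Both were highest in stolons and lower in germinating than in dormant winter buds, by differences of -1.11 and -1.90.

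The disulfide isomerases PDIA5 and PDIA6 had the same lowest stage as BIP and ENPL in each species. PDIA5 in *P. zorritensis* had means of 30.7 in zooids, 34.3 in stolons, 85.8 in pre-buds, 9.74 in dormant and 64.0 in germinating tissue, a difference of 2.60 between germinating and dormant tissue and of -3.02 between dormant tissue and pre-buds. Its levels in *C. lepadiformis* were 33.5 in zooids, 56.7 in stolons, 44.7 in pre-buds, 42.6 in dormant and 16.2 in germinating tissue. PDIA6 had 49.8 in dormant and 166 in germinating tissue, with 93.7 in zooids, 94.6 in stolons and 155 in pre-buds in *P. zorritensis*. PDIA6 of *C. lepadiformis* had 125 in the zooid, 253 in the stolon, 177 in the pre-bud, 117 in the dormant and 46.6 in the germinating stage. Dormant *P. zorritensis* thus held the lowest mean of both enzymes, and germinating *C. lepadiformis* likewise.

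PDIA4, a related isomerase with an additional thioredoxin-like domain, stood apart in *P. zorritensis*, with 65.3 in zooids, 70.5 in stolons, 156 in pre-buds, 137 in dormant and 192 in germinating tissue, since its dormant mean lay above those of zooids and stolons. Its dormant minus zooid difference there, 1.06, became -0.12 with equal sums. The levels in *C. lepadiformis*, 80.6 in zooids, 199 in stolons, 140.0 in pre-buds, 192 in dormant and 81.6 in germinating tissue, included a germinating minus dormant difference of -1.23. TXND5, another member of the disulfide isomerase family, had 40.0 in zooids, 23.2 in stolons, 67.4 in pre-buds, 21.3 in dormant and 55.3 in germinating tissue in *P. zorritensis* and stayed between 21.4 and 37.1 in *C. lepadiformis*. The PDIA1 pair was of another kind, being found mainly in zooids, and is described with the zooid genes.

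Summed over the 8 members, the level in *P. zorritensis* was 691 in zooids, 638 in stolons, 1038 in pre-buds, 431 in dormant and 1203 in germinating tissue. The sum in *C. lepadiformis* was 725, 1581, 948, 1025 and 416 in the same order of stages. The dormant stage was thus the lowest of *P. zorritensis* and an intermediate one of *C. lepadiformis*, where the stolon was highest and the germinating stage lowest. By member, dormant tissue held the lowest mean of 6 of the 8 in *P. zorritensis* (7 with equal sums and 5 with a median ratio of 0). As deposited, it held that of 32.0% of all pairs. In *C. lepadiformis* stolons held the highest mean of 7 of the 8 under all 3 scalings, beside 16.3% of all pairs as deposited. Such shares of all pairs were not taken under the other scalings. Against pre-buds, 7 of the 8 passed the filter in each species. Of these, 6 were at least 2-fold lower in dormant *P. zorritensis*, beside 15.7% of all pairs. None was in dormant *C. lepadiformis*, where only 6.03% of all pairs were.

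**Figure D1:**
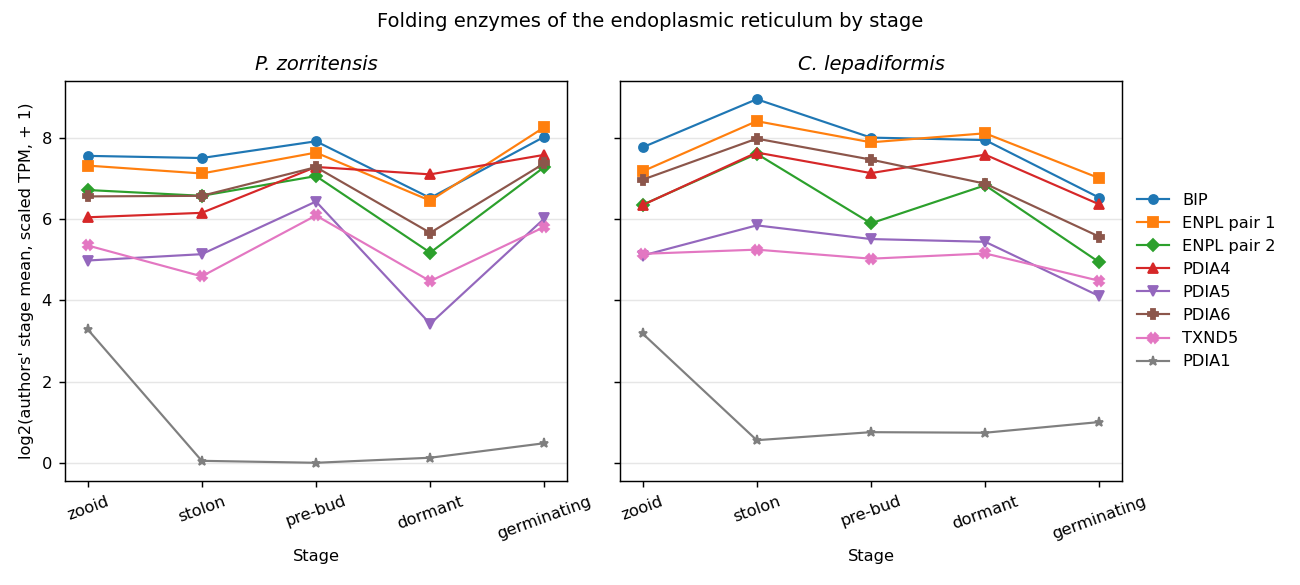
Stage means of the 8 folding enzymes of the endoplasmic reticulum in both species, as log2 of scaled TPM plus 1 (vertical axis) by stage (horizontal axis), with 1 authors' mean per point and lines that only join the points of a gene. In *P. zorritensis* 6 of the 8 are lowest in the dormant stage, and in *C. lepadiformis* 7 of the 8 are highest in stolons.

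Other genes of the reticulum, from a list of 23 names outside the pattern, were found in 8 pairs of 7 names. At germination, 2 of the 6 pairs that passed the filter in *P. zorritensis* were higher and 1 lower, and in *C. lepadiformis* 2 of 8 were lower and none higher. HYOU1, a large HSP70 relative that assists BiP, had 15.2 in zooids, 13.8 in stolons, 21.0 in pre-buds, 5.61 in dormant and 15.6 in germinating tissue in *P. zorritensis*. HYOU1 of *C. lepadiformis* had 8.73 in zooids, 16.0 in stolons, 8.52 in pre-buds, 8.71 in dormant and 4.11 in germinating tissue, again highest in stolons and lowest in germinating tissue. MANF, a small protein of the reticulum that binds BiP, had 116 in dormant and 227 in germinating *P. zorritensis*. The corresponding levels in *C. lepadiformis* were 106 and 37.0, a difference of -1.49. UGGG1, which tags misfolded glycoproteins for another round of folding, had 19.7 and 50.8 in dormant and germinating *P. zorritensis*. In *C. lepadiformis* UGGG1 had 13.0 and 11.0, a difference of -0.22. SYVN1, a ubiquitin ligase that disposes of misfolded proteins of the reticulum, was higher in dormant than in germinating *P. zorritensis*. It had 15.4 in zooids, 12.2 in stolons, 11.5 in pre-buds, 49.5 in dormant and 17.2 in germinating tissue there. Its means in *C. lepadiformis* stayed between 19.3 and 23.3. DERL2, which acts in the same disposal route, did not pass 2-fold in any of the 4 comparisons of either species, nor did P3H1, a hydroxylase of collagen prolines. The stress sensor ERN1 was listed in 2 pairs. In *P. zorritensis* the first had 6.86 in zooids and 1.76 in dormant tissue, a difference of -1.51, and the second had at most 3.76. In dormant and germinating *C. lepadiformis* the first had 8.23 and 3.38, a difference of -1.07, and the second 14.3 and 14.0.

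**Figure D2:**
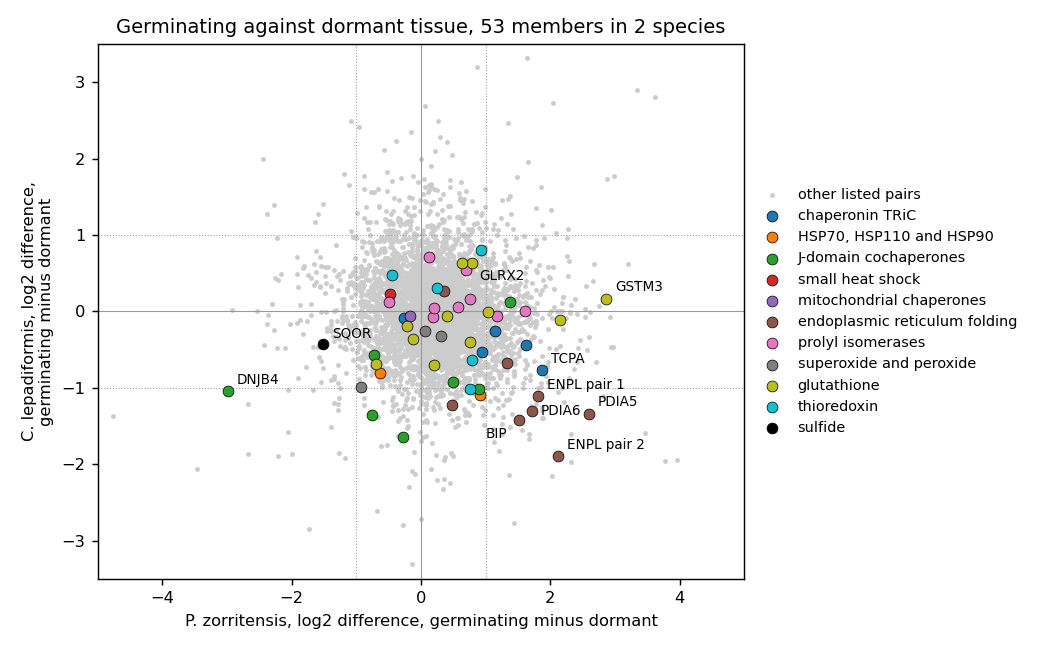
Log2 differences between germinating and dormant tissue in *P. zorritensis* (horizontal axis) and *C. lepadiformis* (vertical axis) for the 53 members, colored by role, over the other listed pairs in grey, 2 of which lie outside the axes. Dotted lines mark 2-fold, and the 5 reticulum members BIP, ENPL (both pairs), PDIA5 and PDIA6 lie beyond it at the lower right, higher in *P. zorritensis* and lower in *C. lepadiformis*.

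Of the TRiC ring, 5 of the subunits were among the pairs, and they did not move as a block in *P. zorritensis*. Of these, TCPA, TCPB, TCPE and TCPQ had their highest mean in germinating tissue, and TCPD had it in dormant tissue. TCPA in *P. zorritensis* had means of 26.0 in zooids, 16.0 in stolons, 31.6 in pre-buds, 9.58 in dormant and 37.6 in germinating tissue, so that the dormant mean was the lowest, -1.62 from pre-buds, while germinating minus dormant was 1.87. TCPB had 31.6 in zooids, 18.6 in stolons, 30.7 in pre-buds, 17.0 in dormant and 54.7 in germinating tissue. In TCPE the means were 52.8 in zooids, 39.8 in stolons, 71.9 in pre-buds, 49.5 in dormant and 111 in germinating tissue. For TCPQ they were 28.2 in zooids, 20.2 in stolons, 33.3 in pre-buds, 26.4 in dormant and 51.5 in germinating tissue, and in these 3 the stolon and dormant means were the lowest. TCPD went another way, with 37.3 in zooids, 28.1 in stolons, 60.5 in pre-buds, 96.7 in dormant and 80.4 in germinating tissue. Dormant minus pre-bud differences of the 5 subunits therefore ran from -1.62 (TCPA) to 0.67 (TCPD), although all are needed for 1 ring. With equal sums TCPD was highest in germinating tissue instead, at a dormant minus pre-bud difference of -0.08, and TCPA in zooids.

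In *C. lepadiformis* all 5 subunits had their highest mean in zooids and their lowest in germinating tissue, under all 3 scalings. These were also the commonest stages of all pairs there as deposited, with 45.5% highest in zooids and 31.3% lowest in germinating tissue. TCPA had 76.7 in zooids, 50.0 in stolons, 64.4 in pre-buds, 36.2 in dormant and 20.9 in germinating tissue. For TCPB the means were 87.7 in zooids, 63.1 in stolons, 57.5 in pre-buds, 56.0 in dormant and 40.9 in germinating tissue. TCPD had 82.9 in the zooid, 55.5 in the stolon, 69.4 in the pre-bud, 49.3 in the dormant and 46.5 in the germinating stage. In both the germinating mean was the lowest. TCPE had 153, 119, 130.1, 104 and 87.5 in the same order of stages, and TCPQ had 88.6, 55.9, 77.3, 45.3 and 30.9. Among the 5, only TCPA passed 2-fold in any comparison of the dormant stage of *C. lepadiformis*, with -1.06 against zooids. Prefoldin, which hands actin and tubulin to the ring, had its PFD1 subunit at 31.7 in dormant and 68.0 in germinating *P. zorritensis*. Its PFD3 subunit had 39.5 and 30.7. In dormant and germinating *C. lepadiformis* PFD1 had 161 and 245, the latter its highest mean, and PFD3 had 46.2 and 48.2. Neither of these differences passed 2-fold. TXND9, a cochaperone that binds TRiC, had 19.3 in zooids, 7.30 in stolons, 7.13 in pre-buds, 10.4 in dormant and 20.7 in germinating tissue in *P. zorritensis* and 54.5 in zooids, 20.9 in stolons, 29.8 in pre-buds, 19.2 in dormant and 34.3 in germinating tissue in *C. lepadiformis*.

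The cytosolic HSP90, HS90B, had the highest level of all members in dormant *P. zorritensis*, with means of 257 in zooids, 208 in stolons, 403 in pre-buds, 987 in dormant and 637 in germinating tissue. The dormant mean lay above the zooid mean by 1.94, the stolon mean by 2.24 and the pre-bud mean by 1.29 on the log2 scale. With equal sums the dormant mean was still the highest, but the differences from zooids and pre-buds, 0.75 and 0.53, no longer passed 2-fold. The same gene in *C. lepadiformis* had 594 in zooids, 622 in stolons, 466 in pre-buds, 481 in dormant and 275 in germinating tissue, with the dormant stage between pre-bud and zooid.

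FKBP4, a prolyl isomerase that works as a cochaperone of HSP90, was likewise highest in the dormant stage of *P. zorritensis*, with 32.1 in zooids, 32.2 in stolons, 62.5 in pre-buds, 93.4 in dormant and 66.0 in germinating tissue. Its dormant mean lay above that of zooids by 1.51 and above that of pre-buds by 0.57, and these became 0.34 and -0.18 with equal sums, where pre-buds were highest. In dormant *C. lepadiformis* it was at its lowest, with 42.6 in zooids, 29.2 in stolons, 39.8 in pre-buds, 21.9 in dormant and 23.8 in germinating tissue. STIP1, the adaptor that joins HSP70 to HSP90, varied little, from 11.1 in zooids to 20.4 in germinating *P. zorritensis* and from 38.8 to 57.8 in *C. lepadiformis*. HS105, an exchange factor that resets HSP70, was lowest in the dormant stage of *P. zorritensis*, where HS90B was highest. It had 23.1 in zooids, 29.8 in stolons, 34.6 in pre-buds, 17.8 in dormant and 34.4 in germinating tissue. Its means in *C. lepadiformis* were 57.8 in zooids, 67.3 in stolons, 42.4 in pre-buds, 56.3 in dormant and 25.8 in germinating tissue.

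Among the 7 J-domain cochaperones, the 4 of the cytosol that deliver clients to HSP70 (DNJA1, DNJB4, DNJB6 and DNJC7) had their highest mean in dormant *P. zorritensis*, whereas 3 others had not. DNJB4 had 19.9 in zooids, 21.6 in stolons, 2.99 in pre-buds, 106 in dormant and 12.5 in germinating tissue. Its pre-bud mean was the lowest, which made the dormant minus pre-bud difference 4.74, while the differences from zooids and stolons were 2.35 and 2.25. Under every alternative DNJB4 remained past 2-fold in these 3 comparisons. In *C. lepadiformis* it had 28.3 in zooids, 23.3 in stolons, 24.4 in pre-buds, 24.6 in dormant and 11.4 in germinating tissue.

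DNJA1, the most abundant J-domain member, had 66.2 in zooids, 93.7 in stolons, 109 in pre-buds, 120.0 in dormant and 98.5 in germinating tissue in *P. zorritensis*, a range within 2-fold. DNJB6, which keeps misfolded proteins from clumping, had 80.4 in dormant *P. zorritensis* and between 41.5 and 47.1 elsewhere. DNJC7, which binds both HSP70 and HSP90, had 95.4 there and between 39.6 and 57.3 elsewhere. None of these 3 was highest in dormant tissue of *P. zorritensis* with equal sums. Means of DNJA1 in *C. lepadiformis* were 179 in zooids, 212 in stolons, 128 in pre-buds, 135 in dormant and 42.2 in germinating tissue. DNJB6 had 51.9 in dormant and 19.6 in germinating *C. lepadiformis*, and DNJC7 had 29.0 and 19.2. DNJA1, DNJB4 and DNJB6 were thus 2-fold or more lower at germination in *C. lepadiformis*.

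The other J-domain members work at defined places in the cell. DNJC3, of the reticulum, had the same lowest stages as BIP, with 22.4 in zooids, 22.3 in stolons, 31.8 in pre-buds, 15.1 in dormant and 28.9 in germinating *P. zorritensis*. The corresponding means of *C. lepadiformis* were 21.1, 48.0, 26.1, 23.6 and 11.1, the highest in stolons and the lowest in germinating tissue. DNJC2, which sits on ribosomes, had 12.2 in zooids, 8.31 in stolons, 14.9 in pre-buds, 7.71 in dormant and 21.7 in germinating tissue of *P. zorritensis*, lowest in the dormant and highest in the germinating stage. It had 20.1 in zooids, 16.9 in stolons, 24.3 in pre-buds, 15.0 in dormant and 16.4 in germinating *C. lepadiformis*. DNJC5, a protein of secretory vesicles, was highest in zooids of both species, with 11.0 in zooids, 3.78 in stolons, 3.61 in pre-buds, 2.84 in dormant and 4.43 in germinating *P. zorritensis*, and 39.8, 25.3, 23.4, 21.4 and 10.8 in the same stages of *C. lepadiformis*. GRPE1, the exchange factor of the mitochondrial HSP70, had 20.7 in zooids, 20.8 in stolons, 41.1 in pre-buds, 55.5 in dormant and 49.4 in germinating tissue in *P. zorritensis*, a dormant minus zooid difference of 1.38 that became 0.22 with equal sums. In *C. lepadiformis* its means were 41.8 in zooids, 30.3 in stolons, 39.7 in pre-buds, 25.1 in dormant and 24.0 in germinating tissue, with dormant and germinating tissue lowest.

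In all, dormant tissue held the highest mean of 13 of the 53 members in *P. zorritensis* (24.5%, beside 16.9% of all pairs). These were HS90B, FKBP4, the 4 cytosolic J-domain proteins, TCPD, GRPE1, CATA, GLRX5, MGST3, TRXR2 and SQOR. The number depends on the scaling: with a median ratio of 0 it was 14, and with equal sums 3, namely DNJB4, HS90B and SQOR. Dormant tissue also held the lowest mean of 18 members (34.0%, beside 32.0% of all pairs), 14 with a median ratio of 0 and 30 with equal sums. The shares of all pairs given here are as deposited and were not taken under the other scalings. Equal sums moved all pairs too, with 68.5% of them at least 2-fold lower in dormant tissue than in zooids.

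**Figure D3:**
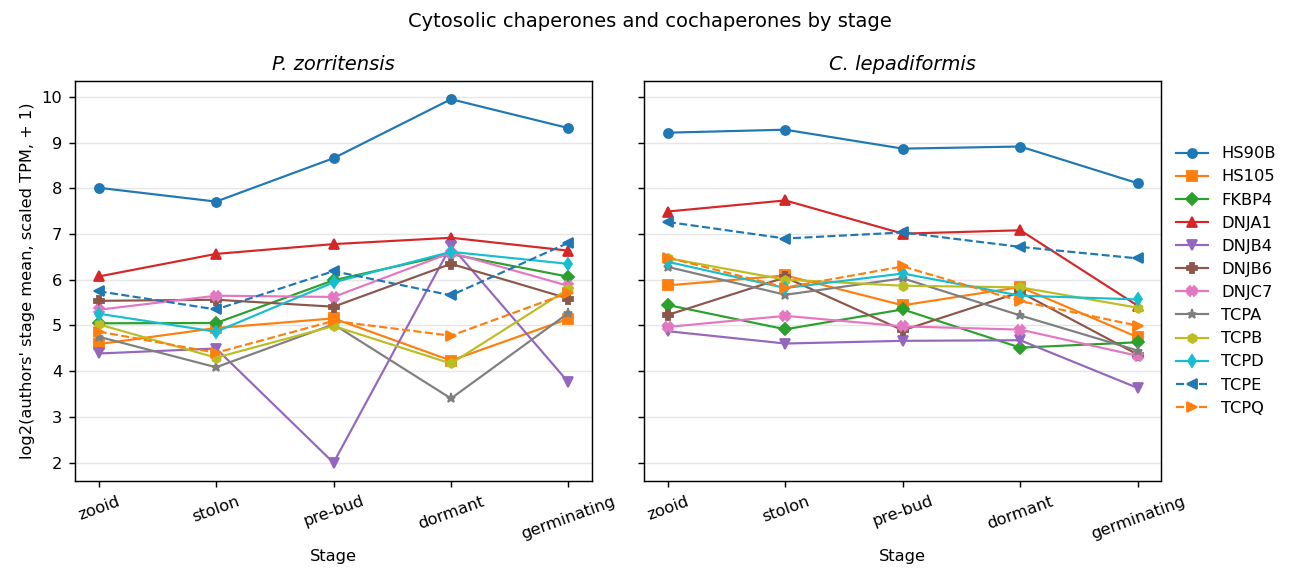
Stage means of 12 cytosolic chaperones and cochaperones in both species, as log2 of scaled TPM plus 1 (vertical axis) by stage (horizontal axis), with 1 authors' mean per point and lines that only join the points of a gene. HS90B is the highest line in every stage, and in *P. zorritensis* DNJB4 goes from 2.99 scaled TPM in pre-buds to 106 in dormant tissue, while in *C. lepadiformis* most lines end lowest in germinating tissue.

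A set of 8 members was found mainly in zooids of both species, with a zooid mean at least 2-fold above every other stage, as were 675 of the 4424 pairs (15.3%). They were HSPB1, both MGST1 pairs, PDIA1, both PPIB pairs, PPIL6 and TXND3, and they remained the 8 under all 3 scalings, but with the transcripts of a Trinity gene summed 5 were left, without PDIA1 and both MGST1 pairs. HSPB1, a small heat shock protein known from vertebrate muscle, had 56.5 in zooids of *P. zorritensis*, was listed at 0 in stolons, had 0.0730 in pre-buds, 11.3 in dormant and 7.84 in germinating tissue. The dormant spherules thus held more than stolons and pre-buds. In *C. lepadiformis* it had 37.1 in zooids and at most 0.326 elsewhere, dormant winter buds included.

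PPIB is known in vertebrates as the cyclophilin of the reticulum. Its first pair had a zooid mean of 27.8 in *P. zorritensis* and at most 2.82 in any other stage. For *C. lepadiformis* the zooid mean was 21.2 and the dormant mean 0.0430, with 0 listed for the remaining 3 stages. The second pair had 23.6 and at most 2.11 in *P. zorritensis*, and 38.2 in zooids of *C. lepadiformis*, where it was listed at 0 in all other stages. In *P. zorritensis* the highest mean outside zooids was that of germinating tissue for both. These transcripts were thus not distributed like BIP or ENPL, which were abundant in all stages.

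PPIL6, a cyclophilin-like protein of little-known function, had 18.7 in zooids of *P. zorritensis* and 21.7 in those of *C. lepadiformis*, with at most 4.11 and 0.641 elsewhere. TXND3, a thioredoxin-domain protein that belongs to ciliary dynein in vertebrates, had 13.8 and at most 0.393 in *P. zorritensis*, and 15.1 and at most 5.61 in *C. lepadiformis*. MGST1, a membrane-bound glutathione transferase and peroxidase, had 44.5 (first pair) and 27.0 (second pair) in zooids of *P. zorritensis*, with at most 2.69 and 3.63 elsewhere. In zooids of *C. lepadiformis* the means were 29.9 and 143, with at most 4.75 and 3.78 elsewhere. PDIA1 had 8.79 and at most 0.397 in *P. zorritensis*, and 8.10 and at most 1.01 in *C. lepadiformis*.

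For some of them the transcript in the pair is a minor one of its Trinity gene. In *C. lepadiformis* the PDIA1 transcript was 1.60% of its gene's level, and the other transcript stood between 114 and 164 in the 5 stages. The first MGST1 pair was 8.04% of its gene in *C. lepadiformis*, where the other transcript had 82.7 in zooids, 128 in stolons, 146 in pre-buds, 79.6 in dormant and 84.3 in germinating tissue, so that the summed level was highest in pre-buds, at 149 beside 113 in zooids. The second pair was 14.8% of its gene in *P. zorritensis*, where the other transcript had 66.9 in zooids and 19.6 in dormant tissue. With its transcripts summed, the second MGST1 pair of *P. zorritensis* differed by -1.21 between dormant tissue and stolons.

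Markers of cilia and muscle had their highest sums in zooids too. All 8 pairs of the cilia list (tektins and axonemal proteins) were highest in zooids of both species, and their summed level was 272 in zooids of *P. zorritensis* and between 1.65 and 8.31 in its other stages, and 319 and between 1.76 and 2.98 in *C. lepadiformis*. Of 5 muscle pairs, 4 were highest in zooids of each species, with sums of 561 in zooids and 22.5 to 62.0 elsewhere in *P. zorritensis* and of 319 and 30.0 to 78.5 in *C. lepadiformis*. Of 7 digestive pairs, 5 were highest in zooids of each species, but their sum in *P. zorritensis* was lowest there, with 692 in zooids, 1006 in stolons, 6396 in pre-buds, 8989 in dormant and 3722 in germinating tissue. Most of that sum outside zooids was the amylase AMYP, with 21.1 in zooids and 8982 in dormant tissue. The other 6 digestive pairs summed to 671 in zooids and 4.65 to 25.9 elsewhere in *P. zorritensis*. In *C. lepadiformis* all 7 summed to 2874 in zooids and 70.4 to 231 elsewhere. The part of these tissues in the levels of the 8 members was not tested. Of the 49 members that passed the filter in both species, 11 were at least 2-fold lower in dormant tissue than in zooids of both, beside 19.1% of all pairs. They were these 8, GSHR, GSTM3 and TCPA. With the transcripts of a Trinity gene summed, PDIA1, the first MGST1 pair and GSHR did not pass the limit in *C. lepadiformis*. Their zooid and dormant sums there were 154 and 119, 113 and 84.4, and 76.9 and 135.

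**Figure D4:**
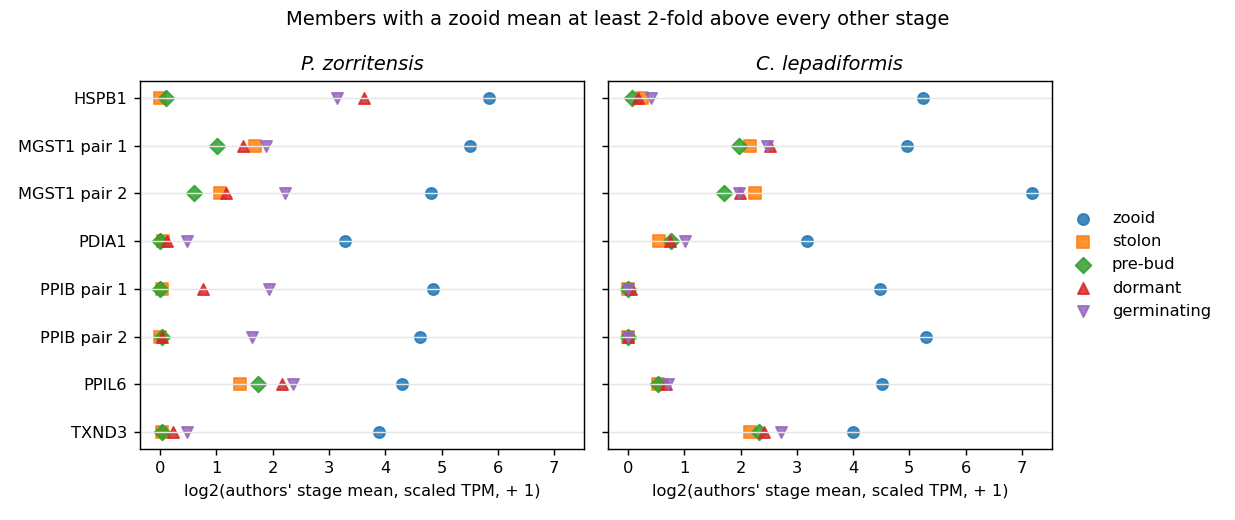
Stage means of the 8 members with a zooid mean at least 2-fold above every other stage in both species, as log2 of scaled TPM plus 1 (horizontal axis), with 1 symbol per stage. The zooid symbols lie at the right of every row, and in *P. zorritensis* the dormant mean of HSPB1 (11.3) and the germinating means of both PPIB pairs (2.82 and 2.11) are the nearest to them in their rows.

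The remaining prolyl isomerases had means of at most 25.3 in any stage of *P. zorritensis* and 52.4 in *C. lepadiformis*. FKB10 and FKB14, of the reticulum, were highest in zooids of *P. zorritensis*, with 25.3 and 9.22, and had 11.9 and 4.62 in dormant tissue. In *C. lepadiformis* they stayed between 18.2 and 28.2, and between 3.97 and 7.16. FKBP8, of the mitochondrial outer membrane, and FKB15 had at most 3.57 and 3.33 in *P. zorritensis*, and so did not pass the filter there. In *C. lepadiformis* they had 15.4 to 24.5 and 10.3 to 17.0. PPIH, the cyclophilin of the spliceosome, had 13.5 in zooids, 11.5 in stolons, 16.6 in pre-buds, 14.4 in dormant and 25.0 in germinating tissue in *P. zorritensis*. A further transcript of its Trinity gene had 24.4 in dormant tissue and at most 1.97 in the other 4 stages. With both summed, the dormant minus pre-bud difference of PPIH changed from -0.19 to 1.18. In *C. lepadiformis* PPIH had 45.0 in zooids, 31.1 in stolons, 52.4 in pre-buds, 29.9 in dormant and 33.6 in germinating tissue.

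The enzymes that remove peroxides were abundant in all stages of *P. zorritensis*. Catalase, CATA, had 116 in zooids, 110.4 in stolons, 132 in pre-buds, 187 in dormant and 97.9 in germinating tissue in *P. zorritensis*, the highest in dormant spherules (in zooids with equal sums), but none of its 4 comparisons passed 2-fold. In *C. lepadiformis* it was highest in zooids, with 191 in zooids, 96.7 in stolons, 41.1 in pre-buds, 79.2 in dormant and 39.4 in germinating tissue. PRDX2, a peroxiredoxin fueled by thioredoxin, had 46.5 in zooids, 44.3 in stolons, 68.1 in pre-buds, 51.6 in dormant and 64.4 in germinating tissue in *P. zorritensis* and 127 in zooids, 167 in stolons, 173 in pre-buds, 120.2 in dormant and 96.3 in germinating tissue in *C. lepadiformis*. GPX6, a glutathione peroxidase, had 167 in zooids, 68.9 in stolons, 106 in pre-buds, 144 in dormant and 150.4 in germinating tissue in *P. zorritensis*, where the dormant mean was above that of stolons by 1.05, which became 0.098 with equal sums. Its means in *C. lepadiformis*, 13.4 in zooids, 5.94 in stolons, 19.6 in pre-buds, 11.3 in dormant and 9.37 in germinating tissue, were lowest in stolons too.

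In glutathione metabolism, the subunits of the first enzyme of synthesis, glutamate-cysteine ligase, were highest in stolons of one species and in zooids of the other. The regulatory subunit, GSH0, had 24.8 in zooids, 67.5 in stolons, 40.7 in pre-buds, 37.4 in dormant and 22.8 in germinating tissue in *P. zorritensis*. The catalytic subunit, GSH1, had 5.43 in zooids, 7.09 in stolons, 3.25 in pre-buds, 2.32 in dormant and 2.81 in germinating tissue, so that both were highest in stolons there. In *C. lepadiformis* GSH0 had 37.6 in zooids, 19.9 in stolons, 14.1 in pre-buds, 8.97 in dormant and 5.20 in germinating tissue. GSH1 had 15.0 in zooids, 12.5 in stolons, 8.61 in pre-buds, 7.83 in dormant and 4.44 in germinating tissue there, and both had their highest mean in zooids and the lowest in germinating tissue. The GSH1 transcript was 34.5% of its Trinity gene there, whose 3 transcripts summed to 31.1 in zooids, 25.0 in stolons, 26.8 in pre-buds, 26.6 in dormant and 30.7 in germinating tissue, with the lowest sum in stolons. GSHB, the second enzyme of synthesis, had 4.21 in zooids, 6.92 in stolons, 4.99 in pre-buds, 3.96 in dormant and 7.42 in germinating *P. zorritensis*, and 3.37, 4.33, 5.40, 3.60 and 2.48 in the same stages of *C. lepadiformis*.

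GSHR, the reductase that regenerates glutathione, was lowest in dormant *P. zorritensis*, with 53.8 in zooids, 43.0 in stolons, 35.2 in pre-buds, 10.1 in dormant and 48.2 in germinating tissue. Dormant minus pre-bud was -1.71 and germinating minus dormant 2.15. The paired transcript of *C. lepadiformis* had 41.7 in zooids, 34.1 in stolons, 42.2 in pre-buds, 20.1 in dormant and 18.5 in germinating tissue, but it was 31.3% of its Trinity gene, whose other transcript had 35.2 in zooids, 55.4 in pre-buds and 115 in dormant tissue. With both summed, the dormant minus zooid difference of GSHR in *C. lepadiformis* turned from -1.01 to 0.81 and the dormant minus pre-bud difference from -1.03 to 0.47.

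GSTM3, a soluble glutathione transferase of the mu class, had the same low point as GSHR in *P. zorritensis*, with 48.4 in zooids, 18.7 in stolons, 43.0 in pre-buds, 3.41 in dormant and 31.0 in germinating tissue. The germinating minus dormant difference of 2.86 was the highest of all members on this scale. GSTM3 of *C. lepadiformis* had 57.5 in the zooid, 33.8 in the stolon, 60.2 in the pre-bud, 22.5 in the dormant and 25.4 in the germinating stage. By their paired transcripts, GSHR and GSTM3 were the members at least 2-fold lower in dormant tissue than in pre-buds of both species. With transcripts summed this did not hold for GSHR, whose difference in *C. lepadiformis* was then 0.47. GSTO1, of the omega class, differed in direction, with 51.5 in zooids and 11.9 in dormant *P. zorritensis*, while the zooid and dormant means of *C. lepadiformis* were 8.78 and 18.9. The difference in *C. lepadiformis*, 1.03, became -0.32 with the transcripts of its gene summed. MGST3, the glutathione enzyme with the highest mean over stages, had 218 in zooids, 275 in stolons, 245 in pre-buds, 375 in dormant and 322 in germinating tissue in *P. zorritensis* and 316 in zooids, 206 in stolons, 215 in pre-buds, 156 in dormant and 136 in germinating tissue in *C. lepadiformis*. Dormant *P. zorritensis* had its highest mean as deposited and its lowest with equal sums.

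Glutaredoxins use glutathione to reduce disulfides. GLRX2, known as a mitochondrial one, varied widely between stages, with 3.36 in zooids, 287 in stolons, 18.2 in pre-buds, 32.6 in dormant and 57.3 in germinating tissue in *P. zorritensis* and 26.8 in zooids, 131 in stolons, 209 in pre-buds, 171 in dormant and 265 in germinating tissue in *C. lepadiformis*. Zooids had the lowest mean in both species, and dormant tissue lay above zooids by 2.95 and 2.63. The stolon was the highest stage of *P. zorritensis*, and the germinating stage the highest of *C. lepadiformis*. GLRX5, which serves the assembly of iron-sulfur clusters, had 23.1 in zooids and 51.9 in dormant *P. zorritensis*, while the zooid and dormant means of *C. lepadiformis* were 20.2 and 13.8. The first of these differences, 1.14, became -0.019 with equal sums.

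In the thioredoxin system, mitochondrial thioredoxin, THIOM, had 49.7 in zooids, 51.6 in stolons, 64.1 in pre-buds, 74.7 in dormant and 130.4 in germinating tissue in *P. zorritensis* and 16.5 in zooids, 28.1 in stolons, 33.0 in pre-buds, 31.5 in dormant and 19.9 in germinating tissue in *C. lepadiformis*. Its reductase, TRXR2, had its highest mean in dormant *P. zorritensis*, with 16.8 in zooids, 12.1 in stolons, 16.1 in pre-buds, 25.7 in dormant and 18.5 in germinating tissue. It had its lowest mean in dormant *C. lepadiformis*, with 15.0 in zooids, 12.9 in stolons, 16.3 in pre-buds, 11.5 in dormant and 16.5 in germinating tissue. TRXR1, the cytosolic reductase, was lowest in dormant *P. zorritensis*, with 27.0 in zooids, 24.4 in stolons, 23.3 in pre-buds, 16.1 in dormant and 27.8 in germinating tissue. TRXR1 of *C. lepadiformis* had 28.3 in zooids, 25.2 in stolons, 22.1 in pre-buds, 19.2 in dormant and 9.02 in germinating tissue, a germinating minus dormant difference of -1.01. In *P. zorritensis* none of the 5 thioredoxin members passed 2-fold between dormant tissue and pre-buds or between germinating and dormant tissue. With equal sums, however, THIOM, TRXR1 and TXND9 were all lowest in its dormant stage, with germinating minus dormant differences of 1.38, 1.30 and 1.46, and TRXR1 differed by -1.21 between dormant tissue and pre-buds. In *C. lepadiformis* THIOM, TRXR1 and TRXR2 were then all lowest in germinating tissue.

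Of 25 names in a list of other redox genes, 5 were found. KEAP1, the sensor that holds the antioxidant regulator NF2L2 in check, had 4.40 in zooids, 18.2 in stolons, 5.37 in pre-buds, 9.14 in dormant and 3.74 in germinating tissue in *P. zorritensis*, whereas NF2L2 had 66.9 in dormant tissue and between 50.7 and 101 elsewhere. In *C. lepadiformis* neither passed 2-fold in any comparison.

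SQOR, the mitochondrial enzyme that oxidizes sulfide and feeds electrons to the respiratory chain, had the largest dormant minus pre-bud difference of the members in *P. zorritensis* on the log2 scale with a pseudocount of 1. With no pseudocount that of HSPB1, whose pre-bud mean is near 0, was larger, at 7.28 beside 5.22. Its means were 44.8 in zooids, 14.3 in stolons, 11.7 in pre-buds, 435 in dormant and 152 in germinating tissue. The germinating mean remained above those of zooids, stolons and pre-buds. Dormant minus zooid, stolon and pre-bud differences were 3.25, 4.83 and 5.10, and they were 2.07, 3.89 and 4.36 with equal sums. The enzyme of *C. lepadiformis* had 47.4 in zooids, 30.3 in stolons, 25.0 in pre-buds, 36.5 in dormant and 26.8 in germinating tissue, with no comparison past 2-fold. ETHE1, which carries out the next step of sulfide oxidation, had 8.41 in zooids, 13.9 in stolons, 12.2 in pre-buds, 30.9 in dormant and 11.2 in germinating tissue in *P. zorritensis* and 28.8 in zooids, 31.9 in stolons, 14.2 in pre-buds, 34.4 in dormant and 17.9 in germinating tissue in *C. lepadiformis*. CGL, an enzyme that makes cysteine and releases sulfide, had 60.4 in zooids, 69.1 in stolons, 157 in pre-buds, 58.0 in dormant and 52.6 in germinating tissue in *P. zorritensis*. The highest mean of CGL was in pre-buds there and in stolons of *C. lepadiformis*, where it had 133 and where germinating tissue had 18.9.

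Between dormant tissue and pre-buds, the spread of the members was thus wider in *P. zorritensis* than in *C. lepadiformis*. It ran from -3.32 (GSTM3) to 5.10 (SQOR) in the former and from -1.38 (GSTM3) to 0.94 (ENPL pair 2) in the latter. The members higher by at least 2-fold in dormant *P. zorritensis* were SQOR, DNJB4, HSPB1 and HS90B. The 10 lower ones were GSTM3, GSHR, TCPA, DNJC3 and 6 of the reticulum (BIP, both ENPL pairs, PDIA5, PDIA6 and TXND5).

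**Figure D5:**
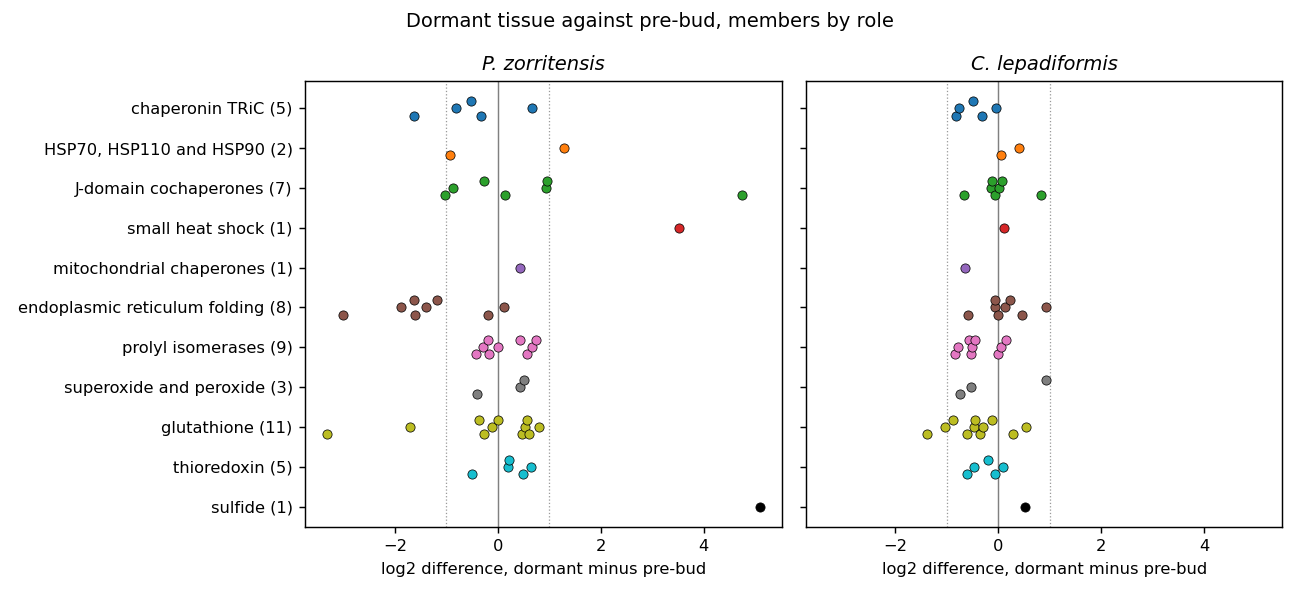
Log2 differences between dormant tissue and pre-buds (horizontal axis) for the 53 members in rows by role, with the number of members in each row in parentheses and dotted lines at 2-fold. In *P. zorritensis* the points run from -3.32 (GSTM3) to 5.10 (SQOR), with 6 of the 8 reticulum members at the left of the lower dotted line, and in *C. lepadiformis* from -1.38 to 0.94.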

How the data were processed

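RNA of 36 samples (18 per species) had been sequenced as paired reads. Bowtie2, FastQC, Trim Galore, kallisto and limma are named in the submitters' processing notes. The authors assembled transcripts de novo per species, left out those under 5 TPM, quantified the rest, scaled the values across libraries and averaged them per stage. The deposited signal values are these stage means, in *P. zorritensis* of 27938 and in *C. lepadiformis* of 18610 transcripts. They do not sum to the same total per stage, so they are not plain TPM. A second deposited table pairs transcripts of the species with entry names of their best protein matches (2 of its lines repeat a pair) and lists the stages in which the authors called each up or down. Those calls are the authors' comparisons and were not used, and values per replicate were not analysed here.

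Members were taken from the pair table by entry name. The members and the lists of other genes were chosen with earlier results of these data known. Stages were compared by log2 of the value plus a pseudocount of 1, in 4 comparisons per species, with a 2-fold limit and a minimum of 5 for the higher of both means. The same limits were applied to all listed pairs, and shares past 2-fold were taken over the pairs that passed the minimum. No test was run, because each stage has 1 mean and the spread is unknown. A rule on roles named 41 members to be given in every stage (all TRiC subunits, the main chaperones, isomerases and reductases, and per role the 3 with the widest range and the most abundant one in each species), of which the 8 zooid members are given by their zooid mean and their highest mean elsewhere, and the other 12 members were added after their values were seen. The 9 alternatives included no pseudocount or one of 5, and filters of 1, 20 or none. They also included stages scaled to equal sums or to a median ratio of 0, and transcripts of a Trinity gene summed. The last kept only the members whose names met the pattern in both species. Summaries by Python 3.11.15 with pandas 2.3.3 and numpy 2.4.6 were tested on simulated data, and figures were drawn with matplotlib 3.10.9. Names were taken as deposited, and entries of the pattern with no pair, such as CH60 or SODC, were not analysed here.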

Additional observations from a re-analysis of the deposited data

How the results depend on the processing

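Of the counts of members under the alternatives, 130 stayed within 1.5 times the main count and 14 did not. With equal sums, dormant *P. zorritensis* had 3 members higher and 35 lower than zooids, 17 lower than pre-buds, and 4 higher and 18 lower than stolons, and germinating tissue had 24 higher and 1 lower than dormant tissue. With equal sums, dormant *C. lepadiformis* had 1 member higher and 1 lower than pre-buds, and 24 were lower in germinating than in dormant tissue. With transcripts of a Trinity gene summed, *C. lepadiformis* had 1 higher and 1 lower in dormant tissue than in pre-buds. With a pseudocount of 5, dormant *C. lepadiformis* had 1 member lower than pre-buds and 1 lower than stolons.

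Of the log2 differences of single members, 1977 kept their side of the 2-fold limit, 82 passed it only under the alternative, 44 only without it, and 9 that passed it in either setting turned their sign. With equal sums the dormant minus zooid difference in *P. zorritensis* became -0.019 for GLRX5, -0.12 for PDIA4, -1.02 for PPIH and -1.02 for PRDX2. With transcripts summed it became 1.18 for PPIH (dormant minus pre-bud) and -1.21 for the second MGST1 pair (dormant minus stolon) in *P. zorritensis*. In *C. lepadiformis* it became 0.81 for GSHR and -0.32 for GSTO1 against zooids, and 0.47 for GSHR against pre-buds. The highest stage of the summed transcripts was another than that of the paired one for 1 member of *P. zorritensis* and 3 of *C. lepadiformis*, and the lowest stage for 3 and 6.

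No paired analysis was possible because the values are means per stage and hold no replicates. For the same reason no replicate was left out, and neither the depth nor the spread of any value is known.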

Other observations

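Transcripts other than the paired ones belonged to the same Trinity gene in 10 of the 53 members of *P. zorritensis* and in 21 of those of *C. lepadiformis*, up to 3 transcripts a gene. Some differed in stage order from the paired transcript. In *P. zorritensis* the second transcript of the ENPL pair 1 gene was lowest in zooids, at 24.5, and had 50.7 in dormant and 45.6 in germinating tissue, where the paired one had 87.1 and 308. In *C. lepadiformis* a second SQOR transcript had 21.4 in zooids and at most 0.14 in the other stages, while the paired one had 25.0 to 47.4. The other transcript of GSHB had 3.88 in zooids and 24.2 in pre-buds of *C. lepadiformis*, where the paired one stayed between 2.48 and 5.40. DNJC5 was a minor transcript of its gene in both species, at 20.5% and 21.3% of the level. Summed over the other TXND3 transcript, zooids of *P. zorritensis* also stood highest, since that transcript had 6.55 there and at most 1.53 elsewhere.

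Mitochondrial quality genes outside the pattern varied with stage. CLPX, the unfoldase of a mitochondrial protease, was listed in 2 pairs, whose transcripts belong to the same Trinity gene in each species. Both were lowest in zooids of both species, the second by little in *C. lepadiformis* (9.40 beside 9.74 in pre-buds). The first had 15.2 in zooids, 58.0 in stolons, 46.0 in pre-buds, 29.5 in dormant and 79.7 in germinating tissue of *P. zorritensis*. TRAP1, the HSP90 of mitochondria, had 4.38 in dormant and 12.0 in germinating *P. zorritensis*, and 14.9 and 18.3 in *C. lepadiformis*.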
